A study of Homo sapiens with 4 samples.

Results

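The genes described here are 35 genes of nuclear receptors and their coregulators, 29 receptor genes and 6 coregulator genes, chosen by gene symbol. Of these, 30 had at least 1 probe set annotated to that gene alone, among 19775 genes so represented on the arrays, and each was read on its brightest such probe set. U937 is a human myelomonocytic cell line from a histiocytic lymphoma. The cells compared carried, in the lentiviral vector pSICO-R, the hairpin shPIR#7 against PIR (PIR knock-down), or the same vector without a hairpin (empty vector), and the 2 groups shared the cell line, the vector and the medium of RPMI-1640 with serum and glutamine. Pirin, the product of PIR, is a nuclear protein that binds iron. The knock-down rests on a single hairpin, and the sources used here do not say whether the cells were a clone.

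Total RNA from 3 extractions was mixed into 1 pool per condition, and each pool was hybridised to 2 HG-U133 Plus 2.0 arrays, giving 4 arrays. Arrays of a pool are technical repeats of the hybridisation. Every SD below is therefore a spread between technical arrays (n = 2 arrays), each group is 1 sample, and no p-value can be given for the condition. In RNA from bulk cells, fewer cells of a kind and less RNA per cell cannot be told apart. The array medians were 62.7 and 68.6 with the knock-down and 70.9 and 72.2 with the empty vector. The 3′ to 5′ signal ratio of the GAPDH control probe sets was 0.98 and 1.00 with the knock-down and 0.96 and 1.02 with the empty vector. PIR itself, the target of the hairpin, had signals of 83.4 and 91.5 on knock-down arrays, against 1813 and 1882 on empty-vector arrays, a log2 difference of -4.14. Of 12 myelomonocytic markers with a probe set, 9 were measured, among them CEBPA, LYZ and ELANE, whereas MPO, CD14 and FCGR1A lay below the brightness limit in both pools. Of markers of other cells, CD3D, CD3E and CD3G of T cells and MS4A1 of B cells lay below it, but NKG7 of T and NK cells was measured, at 9281 and 9268 with the knock-down against 7025 and 7344 with the empty vector. CD79A and PAX5 of B cells were measured too, with log2 differences of -0.11 and -0.30.

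Nuclear receptors are transcription factors that bind small lipophilic ligands such as retinoids, steroids, thyroid hormone, vitamin D and oxysterols, and many pair with a retinoid X receptor on DNA. Without ligand several of them hold corepressors such as NCOR1, and with ligand they recruit coactivators of the p160 family (NCOA1, NCOA2, NCOA3) and the Mediator complex through MED1. In myeloid cells retinoid and vitamin D receptors are known for driving differentiation, and the peroxisome proliferator and liver X receptors for lipid handling in macrophages.

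The brightness limit was the 60th percentile of signal of an array (116 to 126 over the 4 arrays), and genes that reached it on the full set of arrays of 1 or both pools are called measured. Differences are knock-down minus empty vector on the scale log2(signal + 18.4), which understates the change of dim genes. The 2-fold rule asked for a difference of at least 1 with all 4 array-by-array differences at least 0.5 in that direction and the higher pool above the limit. The 1.5-fold rule asked for a difference of at least 1.5-fold, that is 0.585 on the log2 scale, with all 4 at least 0.25. By these rules 16 of the 30 genes were measured and 14 were below the limit.

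No measured gene of the set met the 2-fold rule in either direction, against 2.43% of all 10288 measured genes that met it as higher and 1.08% as lower. By the 1.5-fold rule PPARA was higher and MED1 was lower, that is 1 of 16 in each direction, against 8.6% of all measured genes as higher and 4.98% as lower. Under median scaling all measured genes split into 340 higher and 76 lower by the 2-fold rule, against 250 and 111 as deposited. In these data 1 of 16 is close to both shares, so the set does not stand out by its count of calls. The median difference of the 16 genes was 0.09, and that of all measured genes was 0.05. The knock-down arrays lay above both empty-vector arrays for 7 of the 16 genes and below both for 4, against 40.9% and 31.2% of all measured genes. For the other 5 (RARA, RARG, RXRB, NR1D2 and NR2F6) the arrays of the pools overlapped. The median SD between arrays was 0.09 on the log2 scale over these genes and 0.09 over all measured genes.

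**Figure D1:**
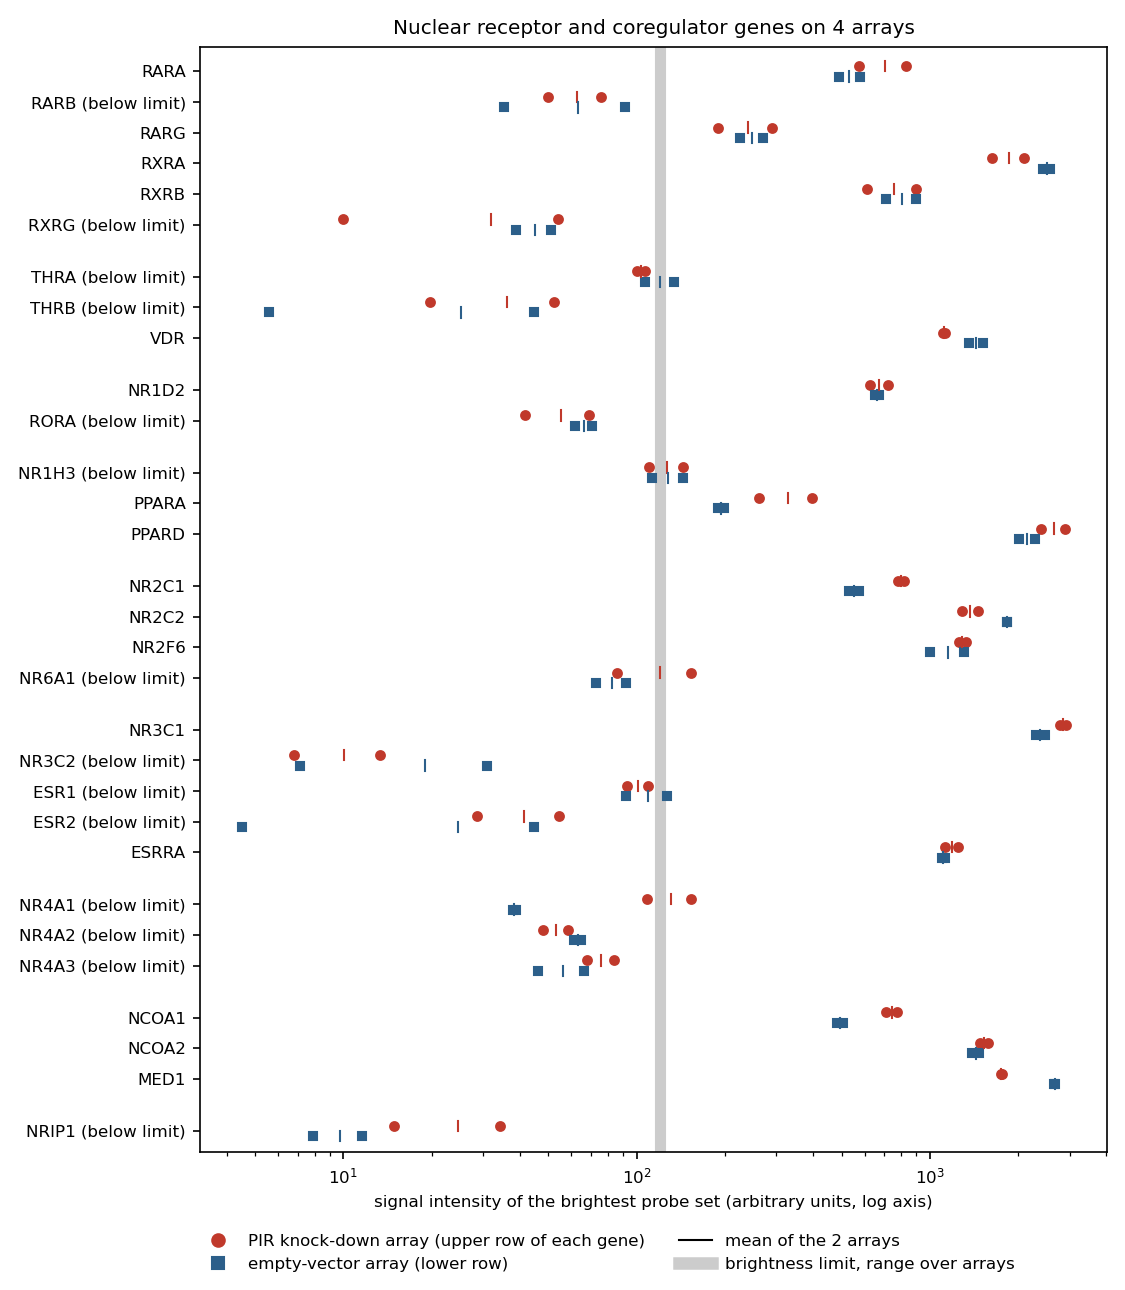
Signal intensity (horizontal log axis, arbitrary units) of the brightest probe set of each of the 30 genes with a probe set. Red circles are the 2 knock-down arrays (upper row of each gene), blue squares the 2 empty-vector arrays (lower row), short vertical lines the means, and the grey band the brightness limit of 116 to 126. PPARA and NCOA1 have both red circles to the right of the blue squares, MED1 has them to the left, and 14 genes are marked as below the limit.

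Of the measured receptors, PPARA had the largest difference. This receptor, which is activated by fatty acids and controls genes of their oxidation, had signals of 261 and 398 on knock-down arrays, against 189 and 199 on empty-vector arrays. Both knock-down arrays were above both empty-vector arrays, although the knock-down arrays also lay far apart from each other. The means were 329 ± 96.9 with the knock-down and 194 ± 7.00 with the empty vector, a log2 difference of 0.68 or 1.6-fold. The other 2 measured PPARA probe sets gave log2 differences of 0.88 (262 and 299.6 with the knock-down against 195 and 105 with the empty vector) and 0.95 (201 and 246 with the knock-down against 101 and 112 with the empty vector), and both also met the 1.5-fold rule. Neither reached the limit on both empty-vector arrays, so these probe sets counted as measured through the knock-down pool alone. The difference on the brightest probe set was under 1.5-fold without knock-down replica 2 (0.39), with a pseudocount 4 times larger (0.57) and when all 9 PPARA probe sets, 6 of them below the limit, were averaged (0.35), and PPARA was not measured under a limit at the 75th percentile.

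PPARD, the broadly expressed member of the subfamily, had signals of 2899 and 2399 with the knock-down and 2283 and 2009 with the empty vector, a log2 difference of 0.30. A second PPARD probe set gave 0.33 and a dimmer one gave -0.43 (162 and 120 with the knock-down against 189 and 199.8 with the empty vector). The dimmer one counted as measured through the empty-vector pool alone, and the measured probe sets of this gene went both ways only through it. For comparison, PPARG, the adipocyte and macrophage member, which is not among the 35 genes, had signals of 1434 and 1312 with the knock-down against 448 and 529 with the empty vector and met the 2-fold rule as higher on its only probe set, at 2.75-fold. NR1H3, the liver X receptor alpha gene, had signals of 110 and 144 with the knock-down against 113 and 144 with the empty vector, and only 1 array of each pool reached the limit. NR1H2, which encodes the beta form, is not named in the platform annotation used here.

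The promoters of PPARA and MED1 are shown because these were the genes of the set that met a size rule. Each run is the 250 bases before an annotated start, from RefSeq on build GRCh38.p14, on the strand of the gene. RefSeq lists 2 starts for PPARA, and the windows before them lie at chr22:46150276-46150525 and chr22:46150538-46150787 on the plus strand. Capitals mark GGGCGG on either strand, the GC box bound by Sp-family factors; it was chosen after these sequences had been read, and matches in a run overlap each other.
PPARA, first window: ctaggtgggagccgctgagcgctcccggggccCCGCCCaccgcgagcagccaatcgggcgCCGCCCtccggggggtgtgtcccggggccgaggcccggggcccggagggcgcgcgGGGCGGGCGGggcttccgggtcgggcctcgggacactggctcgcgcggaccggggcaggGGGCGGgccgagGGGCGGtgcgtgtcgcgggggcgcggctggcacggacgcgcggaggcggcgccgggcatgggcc
PPARA, second window: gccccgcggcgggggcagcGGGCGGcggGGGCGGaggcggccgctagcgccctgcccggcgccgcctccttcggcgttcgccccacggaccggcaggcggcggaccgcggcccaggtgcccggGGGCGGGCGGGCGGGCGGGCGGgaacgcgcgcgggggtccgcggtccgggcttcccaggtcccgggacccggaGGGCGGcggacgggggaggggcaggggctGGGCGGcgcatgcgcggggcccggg
The GC box matched 6 times in the first window and 9 times in the second, and 13.9% of 35116 annotated promoter windows of the same length held it at least 3 times. At least 1 match was in 42.6% of all windows and in 42 of the 69 windows of the set, from 23 of 31 genes. The GC content was 84.4% and 87.2%, against a median of 58.0% over all windows. The AGGTCA core, which many nuclear receptors bind, was searched on both strands and was in neither window. It was in 12.1% of all windows and in 6 of the 69 windows of 31 genes of the set, namely in windows of ESR2, NR1H3, RARA, RARB and RXRG.

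The coactivator genes split in direction. MED1, the Mediator subunit that docks on liganded receptors, had signals of 1745 and 1758 on knock-down arrays, against 2674 and 2655 on empty-vector arrays. The arrays within each pool were close and the pools were well apart. The log2 difference was -0.60, that is 1.52-fold lower, with array-by-array differences of -0.61 to -0.59. The other 3 measured MED1 probe sets were all lower too, at -0.49, -0.39 and -0.12, and on all 4 probe sets both knock-down arrays lay below both empty-vector arrays. The difference missed the 1.5-fold limit under median scaling (-0.47) and with all probe sets averaged (-0.40).

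The MED1 promoter lies at chr17:39451264-39451513 on the minus strand. Capitals mark TCTCGCGA on either strand, a motif known from human promoters, chosen after this sequence had been read.
MED1: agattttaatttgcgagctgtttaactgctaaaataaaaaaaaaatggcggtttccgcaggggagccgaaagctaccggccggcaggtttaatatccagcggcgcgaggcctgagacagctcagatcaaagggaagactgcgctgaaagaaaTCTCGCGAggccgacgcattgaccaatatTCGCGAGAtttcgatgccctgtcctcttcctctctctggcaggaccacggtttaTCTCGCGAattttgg
The motif matched 3 times, AGGTCA was not in this window, and no other gene of the set had TCTCGCGA in its windows. It was in 1.03% of all windows, and 24 of the 35116 held it at least 3 times. The GC content of this window was 50.4%. These matches describe the sequences and were not tested against expression.

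NCOA1, the p160 coactivator SRC-1, had signals of 771 and 709.8 with the knock-down and 484 and 506 with the empty vector. Both knock-down arrays were higher, by 1.48-fold (740.2 ± 43.1 with the knock-down against 495 ± 16.0 with the empty vector), just under the 1.5-fold limit. Its other 3 measured probe sets gave 0.44, 0.13 and 0.67 on the log2 scale, and all 4 had both knock-down arrays above both empty-vector arrays. The brightest has an identifier that marks probes shared with other sequences. Leaving out knock-down replica 2 or empty-vector replica 2 brought NCOA1 past the limit, at 0.62 and 0.59. NCOA2, the p160 coactivator also called TIF2 or GRIP1, had signals of 1573 and 1479 with the knock-down against 1471 and 1397 with the empty vector, a log2 difference of 0.09, and 2 further measured probe sets gave 0.13 and 0.53. NCOA3 and the corepressor NCOR1 are not named in the annotation used here. NRIP1, the corepressor RIP140, was near the floor of the arrays, at signals of 34.2 and 14.9 with the knock-down and 7.90 and 11.6 with the empty vector.

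Among the retinoid receptors, the sign of RARA depended on the probe set. RARA, the retinoic acid receptor of myeloid differentiation, had signals of 833 and 573 on knock-down arrays, against 576 and 488 on empty-vector arrays on its brightest probe set. These arrays overlapped, since the lower knock-down value was below the higher empty-vector value, and the difference was 0.37. The next brightest probe set had 315 and 276 with the knock-down against 634 and 605 with the empty vector, a difference of -1.02, and was the only measured probe set of the 46 in the set to meet the 2-fold rule. Of the remaining 3, 1 gave 0.53, 1 gave -0.90, with 120 and 205 with the knock-down against 319.5 and 302 with the empty vector, and 1 gave 0.07. The identifier of the probe set at 0.53 marks shared probes. The 5 RARA probe sets thus spanned 1.55 on the log2 scale. Of 5117 genes with at least 2 measured probe sets, 68 spanned 1.5 or more, and the median span was 0.32. The annotation names a sequence for each RARA probe set except the brightest, but which transcripts each probe set reads was not worked out here.

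RXRA, the main retinoid X receptor of myeloid cells and the shared partner of many of these receptors, had signals of 1633 and 2099 with the knock-down and 2431 and 2571 with the empty vector. Both knock-down arrays were lower, by 1.35-fold (-0.43 on the log2 scale), but the second RXRA probe set gave 0.06 (397 and 366 with the knock-down against 402 and 332 with the empty vector). RXRB gave -0.10 and RARG -0.07, with overlapping arrays in both cases, and both turned positive under median scaling (0.02 and 0.05). RARB, a gene that retinoic acid itself induces, had signals of 49.7 and 75.4 with the knock-down and 91.3 and 35.3 with the empty vector, below the limit. RXRG was also below it, at 53.8 and 10.0 with the knock-down against 50.9 and 38.9 with the empty vector.

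VDR, the vitamin D receptor, was lower without meeting a size rule. It had signals of 1125 and 1107 on knock-down arrays, against 1519 and 1362 on empty-vector arrays, which did not overlap, a log2 difference of -0.36 or 1.28-fold. The other 2 measured VDR probe sets gave -0.24 and -0.10. VDR and MED1 were the genes of the set whose measured probe sets, where there were several, were all negative. The thyroid hormone receptor genes were below the limit, THRA at 100.2 and 107 with the knock-down against 107 and 134 with the empty vector and THRB at 52.4 and 19.8 with the knock-down against 44.8 and 5.6 with the empty vector.

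The heme-binding REV-ERB receptors repress clock genes. NR1D2, the beta form, had signals of 718 and 623 with the knock-down and 649.7 and 668 with the empty vector, and its 2 measured probe sets differed by 0.02 and -0.02, the smallest difference among the measured genes; quantile normalization turned the first to -0.04. NR1D1, the alpha form, overlaps THRA on the opposite strand, and its 3 probe sets in the annotation are assigned to both genes, so no value belongs to NR1D1 alone. The brightest of these shared probe sets had 249 and 213 with the knock-down against 233 and 201 with the empty vector, a difference of 0.08. RORA, which activates the sites that REV-ERB represses, was below the limit on all 8 of its probe sets.

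The testicular orphan receptors, which bind direct repeats and can act as repressors, gave opposite signs. NR2C1 (TR2) had signals of 781 and 815 with the knock-down and 575 and 529 with the empty vector, a difference of 0.52, with no overlap. Its 2 other measured probe sets were lower, at -0.61 (175 and 201 with the knock-down against 328 and 266 with the empty vector) and -0.43 (93.0 and 115 with the knock-down against 165 and 129 with the empty vector), also with no overlap. The probe set at -0.43 counted as measured through the empty-vector pool alone. NR2C2 (TR4) had 1290.4 and 1456 with the knock-down against 1831 and 1827 with the empty vector, a difference of -0.41, and a second, dimmer probe set gave 0.36. For both genes the brightest probe set and the others therefore went in opposite directions between the pools. NR2F6 (EAR2) gave 0.17 with overlapping arrays, and 0.87 on a dim probe set (139 and 137 with the knock-down against 108 and 39.1 with the empty vector). That dim probe set counted as measured through the knock-down pool alone. NR6A1, the germ cell nuclear factor, was below the limit, at 85.8 and 153.9 with the knock-down against 92.2 and 72.9 with the empty vector, and NR2F2 is not named in the annotation.

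The glucocorticoid receptor gene NR3C1 had signals of 2787 and 2909 on knock-down arrays, against 2302 and 2463 on empty-vector arrays. The knock-down arrays were higher, by 1.19-fold, on a probe set whose identifier marks shared probes. Of the other 4 measured NR3C1 probe sets, 3 gave 0.10 to 0.22 and a dim one gave -0.19. ESRRA, an orphan receptor that works with PGC-1 coactivators on mitochondrial genes, had 1130.2 and 1244 with the knock-down against 1125.5 and 1099 with the empty vector, a difference of 0.09, and 0.54 on its second probe set (309 and 268 with the knock-down against 201 and 183 with the empty vector). The mineralocorticoid receptor NR3C2 and the estrogen receptors ESR1 and ESR2 were below the limit on every probe set.

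The NR4A receptors are immediate early genes that act without a known natural ligand, and none of them was measured. NR4A1 (NUR77) had signals of 108 and 154 with the knock-down and 37.9 and 38.7 with the empty vector. The knock-down arrays were higher by 1.38 on the log2 scale, but 1 of them lay below the limit, and its identifier marks shared probes, and the other 2 NR4A1 probe sets gave -0.78 and -0.22. NR4A1 therefore met the 2-fold rule only with no brightness limit or without knock-down replica 1. NR4A2 had 58.3 and 47.8 with the knock-down against 61.1 and 64.9 with the empty vector, and NR4A3 had 67.8 and 83.6 with the knock-down against 46.0 and 66.3 with the empty vector. Over the 14 genes below the limit, the signals ran from 4.5 to 153.9 and the differences ran from -0.48 for RXRG to the 1.38 of NR4A1.

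Of the 16 measured genes, 15 had at least 2 measured probe sets. In 8 of these the probe sets had both signs, against 41.4% of all 5117 such genes. In 5 (PPARA, NR2F6, ESRRA, NCOA1 and NCOA2) they were all positive, and in 2 (VDR and MED1) all negative. Over the 46 measured probe sets, 5 met the 1.5-fold rule as higher and 4 as lower, against 8.6% and 6.38% of all 18999 measured probe sets. By the 2-fold rule 0 were higher and 1 was lower, against 2.38% and 1.41%. The dimmer measured PPARA probe sets and the NR2F6 one at 0.87, all called higher by the 1.5-fold rule, were measured through the knock-down pool alone. The PPARD and NR2C1 probe sets at -0.43 were measured through the empty-vector pool alone. Probe sets of a gene share the arrays and are not replicates of the condition.

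**Figure D2:**
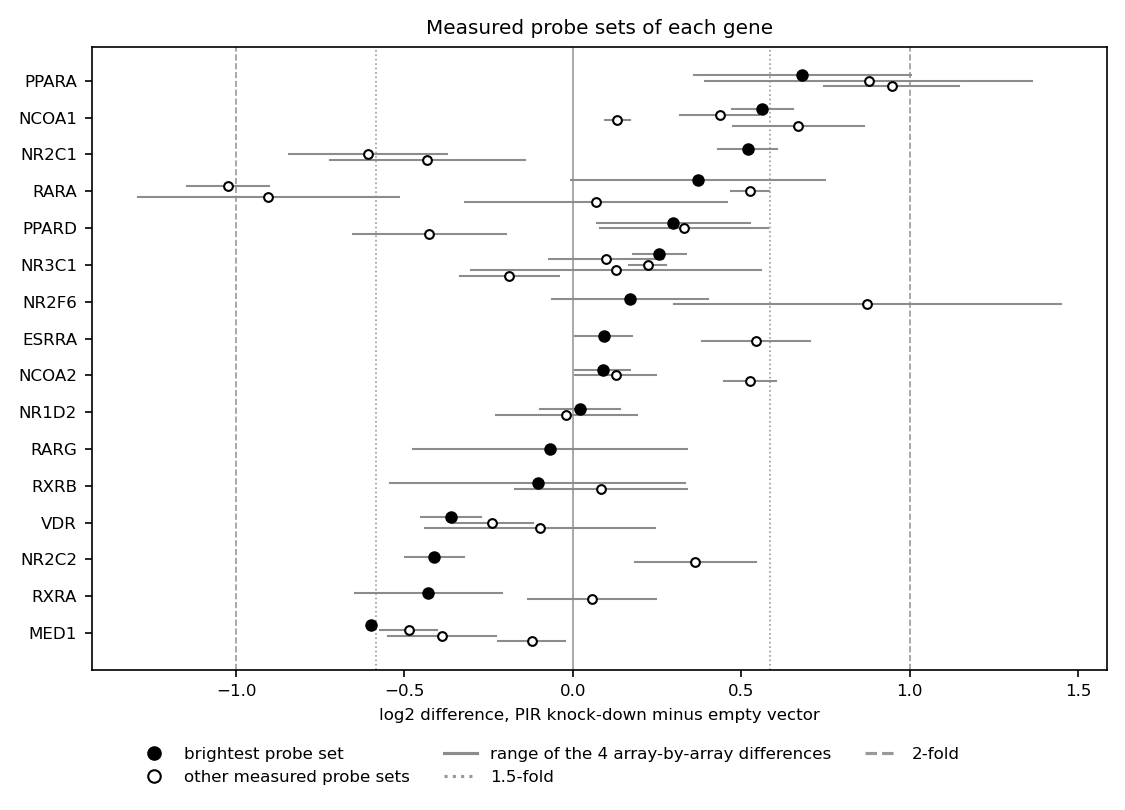
Log2 difference (knock-down minus empty vector, horizontal axis) of each measured probe set of the 16 measured genes, ordered by the brightest probe set (filled). Open circles are the other probe sets, grey lines the range of the 4 array-by-array differences, and dotted and dashed lines mark 1.5-fold and 2-fold. The 3 PPARA probe sets lie to the right of the dotted line, the 4 MED1 probe sets lie left of 0, and RARA spans -1.02 to 0.53.

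The surroundings of these genes were read in 12 further lists, chosen with earlier results of these data known. Their counts therefore describe the lists and test nothing. The shares of all measured genes were 8.6% higher and 4.98% lower by the 1.5-fold rule, and 2.43% and 1.08% by the 2-fold rule. Of the other nuclear receptors, 3 of 13 with a probe set were measured, and PPARG alone met a size rule. Its partner PPARGC1A, the PGC-1alpha coactivator of fatty acid oxidation and mitochondrial genes, had signals of 815 and 876 with the knock-down and 277 and 311 with the empty vector. It was 2.77-fold higher and met the 2-fold rule, with a second probe set below the limit that brought the average to 0.84. Of 38 measured further coactivators and Mediator subunits, 1 met the 2-fold rule (PPARGC1A), 2 met the 1.5-fold rule as higher (PPARGC1A and CITED2, a CBP/p300-binding factor, at 1.61-fold) and none as lower, and their median was 0.04. That none was lower held except without knock-down replica 2, which called 1.

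Of 15 measured corepressor complex genes, HDAC5, a class IIa histone deacetylase, met the 2-fold rule as higher at 2.15-fold (505 and 530.3 with the knock-down against 201 and 265 with the empty vector), a call lost without empty-vector replica 1 (0.92), with the larger pseudocount (0.95) and with both its probe sets averaged (0.50). LCOR, the ligand-dependent corepressor, met the 1.5-fold rule as lower at 1.66-fold, with signals of 291 and 286 with the knock-down against 491 and 494 with the empty vector and -0.82 on its second probe set. The median was -0.09, and 0.04 under median scaling. None of 10 measured receptor chaperones and none of 14 measured clock genes met the 1.5-fold rule, and their medians were -0.10 (0.03 under median scaling) and 0.18. Under median scaling, and without knock-down replica 1, 2 clock genes met it. DBP, an output gene of the clock, had the largest clock difference, at 0.52 (760 and 678 with the knock-down against 519 and 472 with the empty vector), and was named after its value was seen.

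In the retinoid supply list, 1 of 9 measured genes met a size rule. This was DHRS9, a retinol dehydrogenase, at 5.10-fold higher on the brightest of 3 probe sets that all met the 2-fold rule. The other DHRS9 probe sets have identifiers that mark shared probes. Of 10 measured retinoic acid receptor targets, 3 met the 1.5-fold rule as higher and none as lower, with a median of 0.35. Of all measured genes, 8.6% met it as higher and 4.98% as lower. ITGAM, the CD11b integrin chain, met the 2-fold rule at 3.74-fold, and ITGAX (CD11c) at 1.86-fold and ICAM1 at 1.69-fold completed the 3. Averaging all probe sets left only ITGAM past the 1.5-fold limit.

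Of 8 measured vitamin D receptor targets, 2 met the 1.5-fold rule as higher, against 8.6% of all measured genes. They were CAMP, which encodes the cathelicidin peptide, at 1.95-fold (369 and 338 with the knock-down against 205 and 144.5 with the empty vector) and TREM1, a myeloid receptor, at 1.76-fold, and the list median was 0.22, but -0.10 under a limit at the 75th percentile. VDR itself was lower on these arrays, as described above.

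Of 8 measured liver X receptor targets, 2 met the 1.5-fold rule as higher, against 8.6% of all measured genes, and the median was 0.24. SCD, the stearoyl-CoA desaturase, was 1.89-fold higher, and 3 further measured probe sets gave 1.11, 1.77 and 1.66 on the log2 scale. SREBF1, the sterol-regulatory factor gene, was 1.57-fold higher, but 0.46 on the log2 scale without empty-vector replica 2 and 0.39 with its dim second probe set averaged in. With all probe sets averaged the median of this list was -0.07.

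Of 12 measured PPAR targets, 3 met the 2-fold rule as higher and none as lower, against 2.43% and 1.08% of all measured genes. FABP4, a fatty acid carrier, had signals of 322 and 389 with the knock-down against 60.4 and 51.8 with the empty vector. It counted as measured through the knock-down pool alone, and its second probe set, below the limit, gave 0.63 with overlapping arrays. CD36, a fatty acid and lipoprotein receptor, was 2.43-fold higher (1.28 on the log2 scale), and its other measured probe sets gave 1.86 and 1.89. TXNIP, an arrestin-like regulator of glucose uptake that is also on the glucocorticoid list, was 2.10-fold higher. CPT1A, the carnitine palmitoyltransferase of mitochondrial fatty acid import and a target of PPARA in the liver, had 1360 and 1359 with the knock-down against 1850 and 1744 with the empty vector, a difference of -0.40, and was named after its value was seen. The median of the list was 0.16.

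Of 10 measured glucocorticoid receptor targets, 4 met the 1.5-fold rule as higher, 2 of them the 2-fold rule, and none was called lower. Of all measured genes, 8.6% met the 1.5-fold rule as higher and 4.98% as lower, and 2.43% met the 2-fold rule as higher. TSC22D3, the glucocorticoid-induced leucine zipper gene, was 2.02-fold higher (1429 and 1394 with the knock-down against 678 and 699 with the empty vector), at the edge of the limit. Without empty-vector replica 1, TSC22D3 and TXNIP were both at 0.99, and no gene of the list met the 2-fold rule. None met it with probe sets averaged either, with TSC22D3 at 0.69 and TXNIP at 0.98, and TSC22D3 also missed it with the larger pseudocount (0.96), under quantile normalization (0.97) and without knock-down replica 1. ANXA1, an anti-inflammatory lipid-binding protein, was 1.81-fold higher and SGK1, a serum- and glucocorticoid-induced kinase, 1.64-fold higher, but ANXA1 was at 0.48 on the log2 scale with its dim second probe set averaged in. FKBP5, the chaperone that the glucocorticoid receptor induces, had 10193 and 10031 with the knock-down against 11688 and 11657 with the empty vector, a difference of -0.21, named after its value was seen. The list therefore held values of both signs, with a median of 0.27. Of 5 measured estrogen receptor targets, GREB1 at 1.89-fold and IGFBP4 at 1.62-fold met the 1.5-fold rule as higher. Both calls were lost without empty-vector replica 2 (0.55 and 0.53), IGFBP4 also without knock-down replica 2 (0.44) and with the larger pseudocount (0.58). GREB1 was below the limit with the empty vector, and ESR1 and ESR2 were below it in both.

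Of 9 measured myelomonocytic markers, 4 (ITGAM, CD4, CSF1R and PTPRC) met the 1.5-fold rule as higher and none as lower, against 8.6% and 4.98% of all measured genes. The other 5 were CSF3R (0.54), ELANE (0.41), CEBPA (0.26), LYZ (0.01) and SPI1 (-0.13). Of the 9 markers 8 were positive, and their median was 0.54, against 0.05 for all measured genes. The summed signal of the 12 markers with a probe set was 75519.8 and 80999 on knock-down arrays, against 63744 and 65405 on empty-vector arrays. The largest parts of this sum were ELANE (29710 and 29476 with the knock-down against 21750.5 and 22949 with the empty vector) and LYZ (25100 and 30525 against 27356 and 27533). ITGAM is in both the marker list and the list of retinoic acid receptor targets. Of markers of other cells, 2 of 5 for B cells, 1 of 7 for T and NK cells, 2 of 7 for erythroid cells and megakaryocytes and 1 of 8 for epithelial cells and fibroblasts were measured, and none met the 1.5-fold rule. The part of the cells' state in the values of the target lists was not tested.

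**Figure D3:**
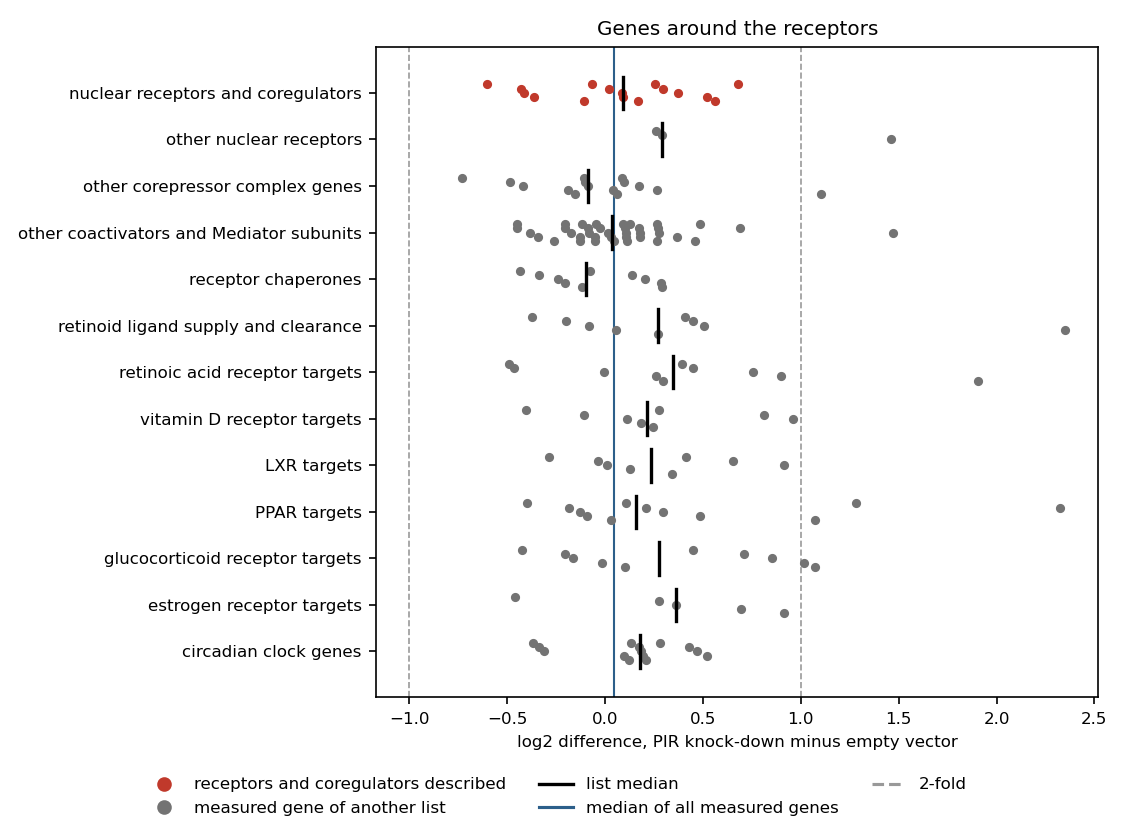
Log2 difference (knock-down minus empty vector, horizontal axis) of each measured gene, with the nuclear receptors and coregulators in red and the 12 further lists in grey. Black bars are list medians, the blue line the median of all measured genes at 0.05, and dashed lines mark 2-fold. All 16 red points lie between -0.60 and 0.68, and the points past 2-fold include PPARG, PPARGC1A, HDAC5 and DHRS9.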

How the data were processed

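Signal intensity per probe set and array was deposited on a linear scale by the authors, with GCOS as the software per the submitters' processing notes, which name no version. Each array had the same mean of 500.07 with 2% of probe sets trimmed at each end, so the deposited intensity values share a scale. Detection calls were not used here.

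Of 54675 probe sets, 62 controls were left out of the gene tables. Symbols came from the platform annotation: 41091 probe sets had 1, 1801 several and 11721 none, and only the first were named. Each gene was read on its brightest probe set (by mean log2 signal). The pseudocount of 18.4 averages the 25th percentiles of the 4 arrays. The arrays of a pool were averaged and count as 1 sample, so size rules without p-values were used. The genes and lists were chosen with earlier results of these data known. All 35 genes are named; from each further list the text names genes past 2-fold, or else up to 3 past 1.5-fold, and others complete a count or are marked. The rules were run on simulated data with changes of 2-fold and larger put in and noise between arrays only. Changes near 1.5-fold were not simulated. Tools were limma 3.58.1 in R 4.3.3, and numpy 2.4.6 and pandas 2.3.3 in Python 3.11.15.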

Additional observations from a re-analysis of the deposited data

How the results depend on the processing

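No gene of the set met the 2-fold rule as lower under any alternative run, and none met it as higher except NR4A1, which gave a count of 1 with no brightness limit. With single arrays left out, the count of genes higher by the 2-fold rule ran from 0 to 1 (NR4A1, without knock-down replica 1). The count higher by the 1.5-fold rule ran from 1 to 3 and the count lower from 1 to 2, with PPARA lost without knock-down replica 2. Those single-array runs measured 16 to 19 genes of the set. Of all measured genes they called 9.19% to 10.5% higher and 5.63% to 6.58% lower. By the 1.5-fold rule, 0 of 16 genes were higher with the larger pseudocount, against 6.88% of all measured genes. Under the 75th percentile limit 0 of 14 were higher, against 7.19%. With all probe sets averaged, 0 of 16 were higher and 0 were lower, against 6.44% and 4.07%. With no brightness limit 2 of 30 were higher, against 7.21%. Under median scaling 3 were higher (PPARA, NCOA1 and NR2C1) and 0 lower, against 13.3% and 3.06% of all measured genes under that scaling, and the median of the set was 0.21, against 0.09 as deposited and 0.05 to 0.15 with single arrays left out. The median of all measured genes was then 0.17, against 0.05 as deposited. Over all measured genes the 2-fold rule called 250 higher and 111 lower as deposited, and 340 and 76 under median scaling, 159 and 76 with the larger pseudocount, 442 and 406 with no brightness limit, 142 and 84 under the 75th percentile limit and 162 and 68 with probe sets averaged. Leaving out single arrays gave 268 to 312 higher and 136 to 179 lower. FABP4, ITGAX, CAMP, GREB1 and IGFBP4 were not measured under the 75th percentile limit. Quantile normalization, no pseudocount and no margin kept PPARA and MED1 as the genes called. The log2 difference of GREB1 was -0.088 with all its probe sets averaged, 2 of them below the limit.

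limma (lmFit and eBayes with trend) judged the difference of the pools by hybridisation error alone, which is no test of the condition. At an adjusted p of 0.05 over all measured genes it called 5 genes of the set higher and 4 lower, against 24.0% and 16.8% of all measured genes. With the replica number as a replicate block it called 6 and 4, against 23.5% and 16.5%, and in both fits 1 gene at 1.5-fold in each direction and 0 at 2-fold. The replica numbers do not pair the arrays: the deviations of arrays with the same number correlated at -0.0045 across genes. With 1 pool per condition, more arrays would narrow only the hybridisation error and not the uncertainty about the condition.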
